A study of Rattus norvegicus with 54 samples.

Results

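The infarct zone and the remote zone of rat hearts treated with a cell sheet after myocardial infarction (MI) were compared within each heart, 1 week after the operation. The comparison held the 12 libraries labelled MI+Cell Sheet and infarct or remote, 1 of each zone from each of 6 hearts, of 54 libraries in the series. The animals were female athymic rats (F344/NJcl-rnu/rnu), 8 weeks old at surgery, whose proximal left anterior descending artery (LAD) was ligated completely. A bi-level sheet of human smooth muscle cells (SMC) and endothelial progenitor cells (EPC) was then placed on the epicardium. The untreated MI hearts carried the same ligation with no sheet, the sham hearts were operated on with no ligation, and each of these groups also gave 6 infarct and 6 remote libraries (sham hearts have no infarct, so the name there marks a position). Every heart was athymic, which limits all groups as a model of T cell responses. The study proposed that such a sheet would improve engraftment and vessel growth and limit remodeling of the ventricle. It assessed this by magnetic resonance imaging, histology and RNA sequencing. Here the question is how far the ligated territory under a sheet differed from the spared wall of the same ventricle. Per the labels, replicates within a group are technical, whereas the study describes separate hearts. If the label is right, the p-values measure only the spread between these libraries, which may be technical.

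Closing the LAD stops the blood supply of the front wall and apex of the left ventricle, where most cardiomyocytes die within hours. Over the following week macrophages clear the dead muscle, and fibroblasts that have become contractile myofibroblasts fill the gap with collagen-rich matrix while capillaries are rebuilt. The remote wall keeps its blood supply and its muscle, so that a healthy adult rat ventricle there makes mostly the fast alpha myosin heavy chain (Myh6), and under load more of the slow beta chain (Myh7).

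The promoters of 5 genes past the test are shown because they hold the same short letters in genes of opposite or of like direction. The sequences are the 150 bases before the start site in RefSeq (GRCr8, 27457 gene symbols with a promoter), on the strand of the gene, and the capitals mark the motif. The first motif is CCCTATATGG, close in letters to the CArG box, which serum response factor binds in muscle genes. Acta2, smooth muscle actin, lies at chr1:241172504-241172653 on the minus strand, and Actc1, cardiac actin, at chr3:121271828-121271977 on the minus strand.
Acta2: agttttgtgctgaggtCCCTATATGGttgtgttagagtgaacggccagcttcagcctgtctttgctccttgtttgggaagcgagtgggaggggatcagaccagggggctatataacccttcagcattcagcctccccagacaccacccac
Actc1: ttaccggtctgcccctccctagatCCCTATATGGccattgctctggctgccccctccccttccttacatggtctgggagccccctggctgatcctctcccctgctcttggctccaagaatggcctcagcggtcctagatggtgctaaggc
These 10 letters, searched on both strands of the 250 bases before each start site, stood 134 to 125 bases before the start in Acta2 and 126 to 117 bases before it in Actc1. They occur in 4 of the 27457 promoters (0.0146%), and Acta2 and Actc1 moved in opposite directions between the zones, as given with the muscle genes.

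The other motif is TGAGTCA, the letters to which AP-1 factors bind. It is shown for 3 genes of the macrophage and protease lists that were higher in the infarct zone. Mmp12, the macrophage elastase, lies at chr8:12866502-12866651 on the plus strand. Gpnmb, a glycoprotein of lipid-laden macrophages, lies at chr4:79340978-79341127 on the plus strand, and Cd68, a lysosomal protein of macrophages, at chr10:54882442-54882591 on the minus strand.
Mmp12: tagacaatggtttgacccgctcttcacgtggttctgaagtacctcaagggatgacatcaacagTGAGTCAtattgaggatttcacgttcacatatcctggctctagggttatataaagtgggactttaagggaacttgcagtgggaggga
Gpnmb: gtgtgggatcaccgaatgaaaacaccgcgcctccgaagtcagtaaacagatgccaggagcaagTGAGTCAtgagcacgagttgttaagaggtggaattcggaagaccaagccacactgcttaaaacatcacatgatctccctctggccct
Cd68: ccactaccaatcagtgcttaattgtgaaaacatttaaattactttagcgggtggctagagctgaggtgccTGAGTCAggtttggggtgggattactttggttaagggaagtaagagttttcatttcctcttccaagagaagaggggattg
The 7 letters, on either strand, were in 3.98% of all promoters and in 3.17% of those of all genes tested. They were in 3.19% of those of genes higher in the infarct zone and in 3.22% of those of genes lower there. The 3 genes are shown because they hold the motif, and the shares of both directions were alike.

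The counts on genes ran from 16542441 to 23397754 in the infarct libraries and from 15799147 to 18347983 in the remote libraries. Counts that fell on no single gene took 17.0% to 27.5% (median 18.2%) of each infarct library and 23.4% to 31.9% (median 29.1%) of each remote library, lower in the infarct library of all 6 hearts (mean difference -8.71 percentage points, exact paired permutation test, 2-sided, p = 0.0312, the smallest that 6 pairs allow). Without heart 1 the difference was -9.31 (exact paired permutation test, p = 0.0625, again the smallest possible). A pair of libraries stood apart from the rest of their zones and touch each result that follows.

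Heart by heart, the zones were not equally far apart. The mean level of 20 sarcomere genes, which make the contractile apparatus of cardiomyocytes, is given on the scale of log2 CPM, where CPM is a gene's counts scaled to a library of fixed size. It was 10.25 in the remote library of heart 1 and 11.20 to 11.55 in the other 5 remote libraries, and among the infarct libraries it was 7.88, 5.78, 6.27, 7.22, 9.54 and 10.72 in hearts 1 to 6. The remote library of heart 1 thus had the lowest muscle level of its zone and the infarct library of heart 6 the highest of its zone, and the latter exceeded the former. Macrophage genes moved the other way, with a mean level of 6.90 in the remote library of heart 1 against 4.39 to 5.31 in the other remote libraries, and 6.50 in the infarct library of heart 6 against 7.69 to 8.29 in the other infarct libraries. Of the genes tested, 1963 (12.4%) set the remote library of heart 1 apart from the other 5 by Dixon's criterion, and 810 (5.11%) set the infarct library of heart 6 apart, against 37 to 90 for each of the other 10 libraries. Across genes, the remote library of heart 1 was as close to the infarct library of heart 6 (Pearson r = 0.972) as remote libraries of hearts 2 to 6 were to each other (0.966 to 0.984). That pair was not its closest match, as its r with infarct libraries ran from 0.904 to 0.975. With the remote libraries of hearts 2 to 6 it ran from 0.902 to 0.951. For the infarct library of heart 6, r was 0.939 to 0.967 with those remote libraries and 0.867 to 0.958 with the other infarct libraries. In both hearts the border library had a lower sarcomere level (3.65 and 8.82) than the infarct library, so that the order of the levels went against the labelled zones. Zones are named here as labelled. Whether these libraries carry the labels of the pieces they were made from was not tested, and the counts over all genes are also given without these hearts.

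**Figure D1:**
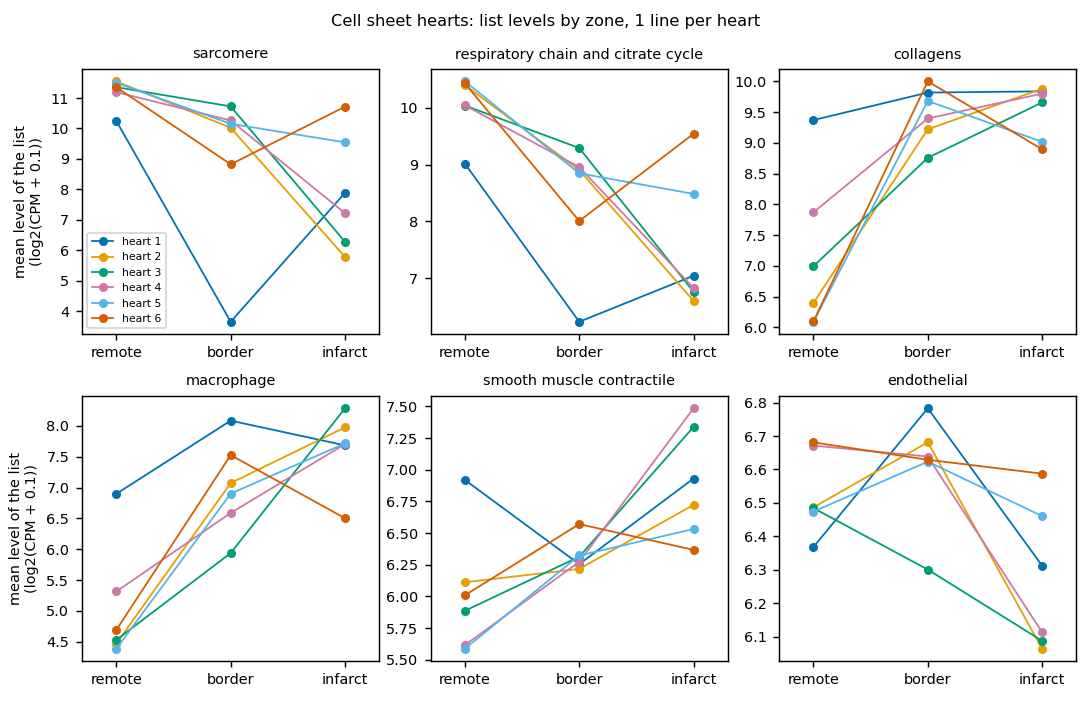
Mean level (log2 of CPM + 0.1) of 6 gene lists in the remote, border and infarct libraries of the 6 cell sheet-treated hearts, with 1 line per heart. The remote library of heart 1 and the infarct library of heart 6 lie between the other libraries of both zones for sarcomere and macrophage genes.

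Between the zones, 9964 of 15854 genes tested differed (62.8%, edgeR quasi-likelihood test with the heart as a block, adjusted p under 0.05), of which 4993 (31.5%) were higher and 4971 (31.4%) lower in the infarct zone. The change exceeded 2-fold for 4831 of them, 2396 higher and 2435 lower. In 8555 of the called genes (85.9%) all 6 hearts moved the same way. The 6 infarct libraries did not overlap the 6 remote libraries for 1416 of the tested genes (8.93%). The shares of 31.5%, 31.4% and 8.93% are the background for each count of a list below. A small list near them says little as a set. In hearts 2, 3, 4 and 5 between 5547 and 7074 genes differed by more than 2-fold between the zones, in heart 6 the number was 2565 and in heart 1 it was 2307. Without heart 1 the test called 10054 genes (5078 higher, 4976 lower), and without hearts 1 and 6 it called 10452. Without the scaling by trimmed mean of M values (TMM), which moves the median log2 fold change of all genes from 0.03 to 0.25, 64.5% of the calls were higher in place of 50.1%, so small rises and falls depend on the scaling. In these pieces of tissue, fewer cells of a type and less RNA per cell cannot be told apart. Reads of the human sheet that align to rat genes would be counted as rat, and their part was not tested.

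Muscle genes fell. Of the sarcomere list 19 of 20 genes were lower in the infarct zone and none higher, with a median log2 fold change of -3.46 against 0.03 over all genes tested, and all 17 genes of calcium handling and excitation were lower (median -3.13). Myh6 was at 3855, 13960, 194, 10106, 13242 and 12138 CPM in the remote libraries of hearts 1 to 6, and at 265, 56.2, 2.85, 98.7, 1759 and 5579 CPM in their infarct libraries. All 6 hearts were lower in the infarct zone, but the groups overlapped because heart 3 was low in both zones and heart 6 high in its infarct. The log2 fold change was -4.82 ± 1.15 (SE, n = 6 hearts, adjusted p = 0.00922), a call that was lost without the heart as a block (adjusted p = 0.102). Actc1, the cardiac actin with the 10 promoter letters shown, ran from 5462 to 12494 CPM in remote libraries (median 9698) and from 219 to 5572 CPM in infarct libraries (median 675), and fell by 3.47 ± 0.83 on the log2 scale (adjusted p = 0.00946). Tpm1, the tropomyosin that sits on the thin filament, fell by 2.34 ± 0.45, and Myom2, a protein of the M-band, by 4.25 ± 1.09.

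The pumps and channels that set the heartbeat fell to a like degree. Atp2a2, the calcium pump that refills the sarcoplasmic reticulum, ran from 4427 to 13595 CPM (median 10226) in the remote zone and from 284 to 5561 CPM (median 533) in the infarct zone. It was lower in the infarct of 6 of 6 hearts (log2 fold change -3.59 ± 0.75, adjusted p = 0.00595). Its inhibitor Pln, phospholamban, changed by -3.53 ± 0.82. The 2 members of the list that changed most were Kcnip2 (-4.67 ± 1.24) and Kcnd2 (-4.28 ± 1.14), a subunit and the pore of the channel that carries the transient outward potassium current, with adjusted p of 0.0138 and 0.0142. Kcnd2 had a median of 9.46 CPM in the remote and 0.203 CPM in the infarct zone, with no count in the infarct of heart 4.

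**Figure D2:**
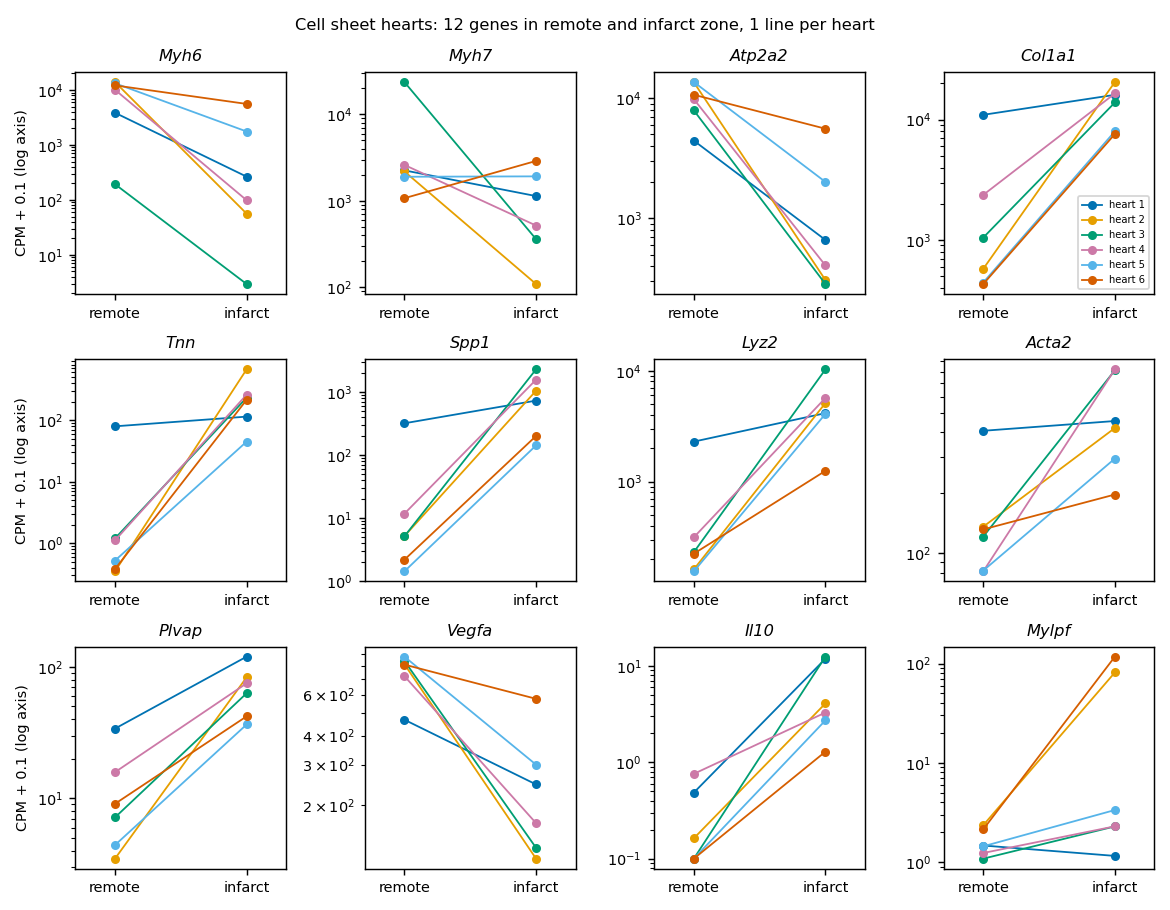
Level (CPM + 0.1, log axis) of 12 genes in the remote and infarct library of each cell sheet-treated heart, joined by a line per heart. Lines fall for Myh6, Atp2a2 and Vegfa in 6 of 6 hearts and rise for Col1a1, Tnn, Spp1, Lyz2, Acta2, Plvap and Il10 in 6 of 6, and heart 3 starts low for Myh6 and high for Myh7.

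Heart 3 differed from the rest in which myosin it made. Its Myh7 was at 23710.2 CPM in the remote and 359 CPM in the infarct zone, and its Myh6 at 194 and 2.85 CPM. As a share of the counts of both myosin genes, Myh7 took 99.2% in the remote, border and infarct libraries of heart 3. In the other 5 remote libraries of cell sheet-treated hearts the share was 8.11% to 36.9%. The medians were 17.0% in the remote, 48.7% in the border and 73.5% in the infarct libraries of all 6 hearts, 35.6% and 71.2% in the remote and infarct libraries of untreated MI hearts, and 13.4% and 14.2% at the same positions of sham hearts. The share was thus higher in the infarct than in the remote zone of both ligated groups, while sham hearts gave nearly the same value at both positions. Both genes are close in sequence, and reads that fit both would be lost from the counts. Myh7 itself fell by 1.91 ± 1.14 on the log2 scale and did not pass the test (adjusted p = 0.176), the exception among the sarcomere genes. Leaving heart 3 aside, its remote levels were 1071 to 2601 CPM.

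**Figure D3:**
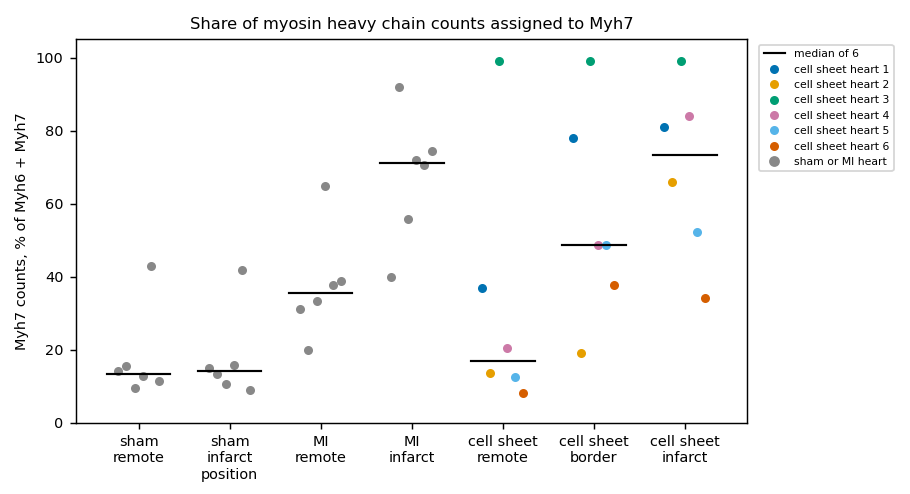
Share of Myh7 in the summed counts of Myh6 and Myh7 (percent) in each library of the sham, untreated MI and cell sheet-treated hearts, by zone. Heart 3 of the cell sheet group is at 99.2% in all 3 zones, and the medians rise from 17.0% in the remote to 73.5% in the infarct libraries of the cell sheet group.

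Of 10 genes that the adult heart turns up under stress 2 were higher and 2 lower, against 31.5% and 31.4% of all genes tested. The median log2 fold change of the list was -1.59. The number lower ran from 1 (without heart 1, 2, 3 or 4) to 5 (without heart 6) and was 6 with DESeq2. Nppa, the atrial natriuretic peptide, ran from 553 to 5845 CPM (median 1626) in the remote and from 162 to 3711 CPM (median 1189) in the infarct zone, with the zones overlapping widely (log2 fold change -0.90 ± 1.02, adjusted p = 0.459). Ankrd1, a stretch-sensed cofactor of the cardiac nucleus and titin, changed by -1.60 ± 0.62 (adjusted p = 0.0544), short of the threshold. Xirp1, a protein of the intercalated disc, fell by 3.08 ± 0.71. The 2 that rose were Actn1, an actinin of non-muscle cells and stress fibers (1.61 ± 0.29), and Nes, the intermediate filament nestin (0.78 ± 0.22, not past the test without heart 5).

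Genes of fuel use were lower as well. All 20 genes of fatty acid uptake and oxidation (median log2 fold change -2.78) and all 24 tested genes of the respiratory chain and citrate cycle (median -2.45) were lower in the infarct zone. Fabp3, which carries fatty acids inside the cardiomyocyte, ran from 680.5 to 3779 CPM in remote (median 2326) and from 23.6 to 1653 CPM in infarct libraries (median 57.1), a log2 fold change of -4.23 ± 0.89 (adjusted p = 0.00608). Ckmt2, the mitochondrial creatine kinase, fell by 4.53 ± 1.04, and Ppargc1a, the coactivator that drives mitochondrial genes, by 3.89 ± 0.83. Atp5f1a and Atp5f1b, the catalytic core of the ATP synthase, both fell by 2.60.

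Of 20 genes of glycolysis and glucose uptake 14 were lower and 2 higher. Among those lower were the muscle forms Slc2a4, the insulin-driven glucose carrier (-3.74 ± 0.78), and Pgam2, the muscle phosphoglycerate mutase (-4.21 ± 0.81), with Gapdh at -1.56 ± 0.27 and Aldoa at -1.62 ± 0.26. The 2 that rose were Slc2a1, the glucose carrier of most other cells, and Aldoc, a non-muscle aldolase. Slc2a1 ran from 14.5 to 29.5 CPM in remote and from 17.9 to 64.4 CPM in infarct libraries and was higher in 6 of 6 hearts (log2 fold change 0.95 ± 0.27, adjusted p = 0.0192), a call that was lost when heart 2, 3 or 4 was left out. Aldoc did not overlap between the zones, with at most 4.38 CPM in remote and at least 4.46 CPM in infarct libraries.

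Of 9 tested genes of the hypoxia response 3 were higher and 5 lower, against 31.5% and 31.4% of all genes tested. A list this small says little about the response as a set. Hmox1, heme oxygenase, rose from a median of 25.9 to 249.7 CPM with no overlap (log2 fold change 2.97 ± 0.52, adjusted p = 0.00377), and Ndrg1 and Adm rose by 1.03 ± 0.27 and 0.65 ± 0.21, the latter not past the test without heart 1, 3 or 5. Egln3, a prolyl hydroxylase that HIF induces, fell by 2.73 ± 0.50, and Bnip3, a mitochondrial cell death protein, by 1.60 ± 0.21.

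Matrix genes rose. All 20 collagen genes were higher in the infarct zone (median log2 fold change 2.29), as were 17 of 18 genes that fold and crosslink collagen, 15 of 16 of the provisional matrix and 17 of 18 proteoglycan and elastic fiber genes, with none lower. Col1a1, the main chain of scar collagen, was at 10968, 575, 1045, 2368, 442 and 429.6 CPM in the remote libraries of hearts 1 to 6, and at 16086, 20548, 13892, 16504, 8003 and 7595 CPM in the infarct libraries. All 6 hearts rose, and the remote library of heart 1 alone reached into the infarct range (log2 fold change 3.53 ± 0.75, adjusted p = 0.00608). Col3a1, its early partner in healing tissue, rose by 2.65 ± 0.68. Col11a1, a chain that starts fibrils and is best known from cartilage, went from a median of 2.42 to 179 CPM (5.62 ± 1.21, and 2.33 with adjusted p = 0.137 without the heart as a block), and its remote level in heart 1 was 179 CPM. Of the processing genes, P4ha3, a collagen prolyl hydroxylase, rose by 4.45 ± 0.81, Lox, the enzyme that crosslinks collagen and elastin, by 3.02 ± 0.49, and the collagen chaperone Serpinh1 by 1.53 ± 0.26.

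Some matrix proteins of wound beds were near 0 in most remote libraries. Tnn, tenascin N, ran from 0.250 to 79.5 CPM in remote libraries (median 0.720) and from 44.8 to 671 CPM in infarct libraries (median 223). It had the largest rise of all genes the naming rule admits (log2 fold change 7.58 ± 1.53, adjusted p = 0.00520), although heart 1 already held 79.5 CPM in its remote library. Spp1, osteopontin, which wound macrophages secrete, went from a median of 5.11 to 901 CPM (6.75 ± 1.13, adjusted p = 0.00345). Fn1, fibronectin, rose by 3.16 ± 0.54 and Sparc, which binds collagen, by 1.76 ± 0.41. Among proteoglycans Bgn, biglycan, rose by 2.65 ± 0.47, Lum, lumican, by 2.42 ± 0.47 with no overlap, and Dcn, decorin, by 0.80 ± 0.21 with no overlap (adjusted p = 0.0502 without heart 5). The 10 largest rises held 5 further genes, with medians in remote and infarct libraries as follows. Ccn5, a matricellular protein, was at 5.67 and 301 CPM (5.33 ± 0.99). Acan, the cartilage proteoglycan aggrecan, was at 0.415 and 21.5 CPM (5.01 ± 0.89). Lrrc15, a membrane protein of activated fibroblasts, was at 0.321 and 22.7 CPM (5.46 ± 1.23). A2m, a broad protease inhibitor, was at 0.477 and 34.4 CPM with no overlap (5.36 ± 1.08), and Ca3, the carbonic anhydrase of muscle and fat, at 1.75 and 94.8 CPM (5.11 ± 0.77).

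Enzymes that cut matrix rose with it, and their inhibitors parted. Of 19 tested genes 12 were higher and 3 lower. Mmp12 ran from 0.283 to 69.1 CPM in remote (median 0.898) and from 34.8 to 384 CPM in infarct libraries (median 134; log2 fold change 6.27 ± 1.11, adjusted p = 0.00378). Adam12, a protease of activated mesenchymal cells, went from a median of 2.50 to 223 CPM (5.26 ± 1.03), and Mmp2, gelatinase A, from 205 to 899.7 CPM (1.94 ± 0.35). Timp2 rose by 1.36 ± 0.22, while Timp3, the inhibitor that binds to matrix, fell from 328 to 376 CPM in the remote to 148 to 290.2 CPM in the infarct zone with no overlap (-0.78 ± 0.15, adjusted p = 0.00466). Timp4, the inhibitor of heart muscle, fell by 2.08 ± 0.37. Mmp11 fell by 0.40 ± 0.15 (adjusted p = 0.0498), a call that most alternatives lost. Of 9 tested genes best known from cartilage and bone 7 were higher, and the single gene lower was Alpl, the tissue phosphatase, from a median of 49.7 to 12.8 CPM with no overlap (-1.86 ± 0.30).

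**Figure D4:**
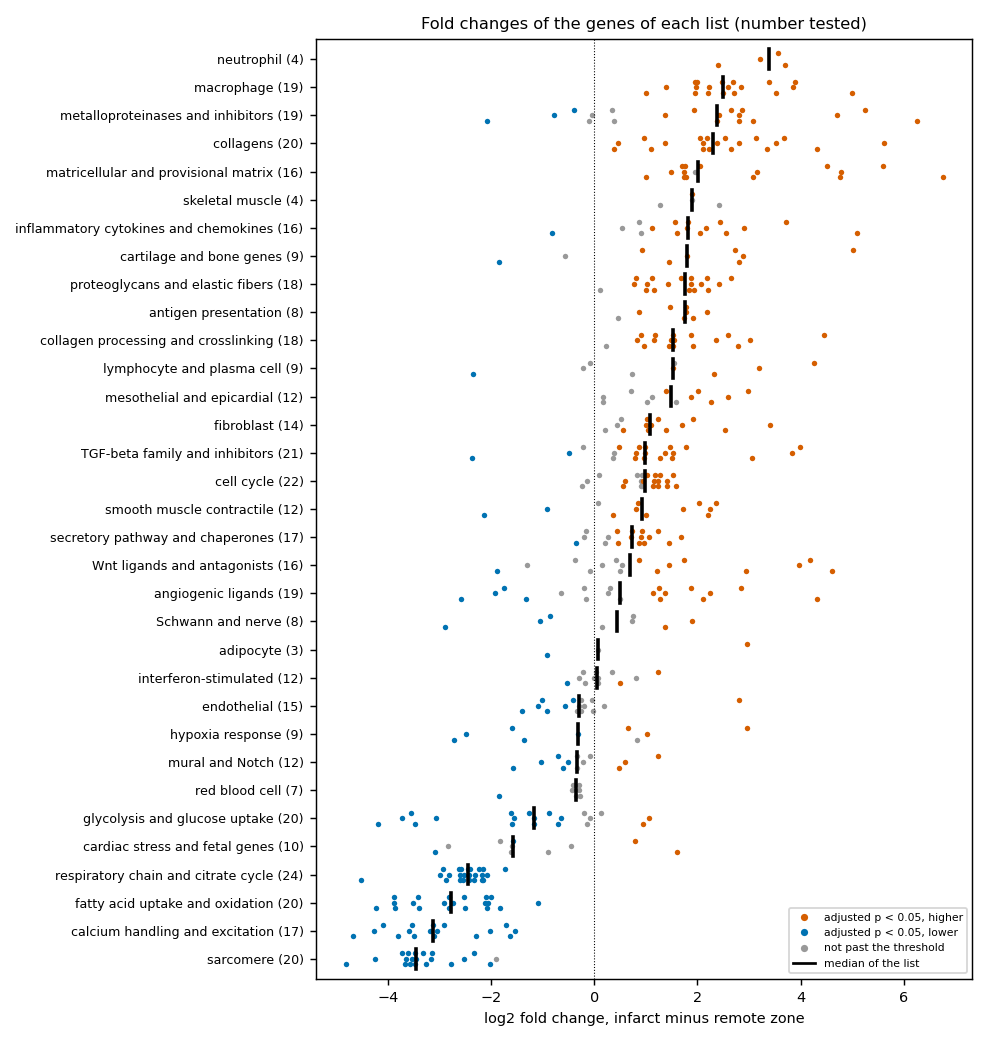
Log2 fold change (infarct minus remote, 6 cell sheet-treated hearts) of each tested member of the gene lists, coloured by whether it passed the test, with a black bar at the median of each list and a dotted line at 0. Sarcomere and fatty acid genes lie to the left of 0, collagen and macrophage genes to the right, and endothelial and mural genes on both sides.

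Fibroblast genes were higher in 11 of 14 cases and lower in none (median 1.07). Thy1, a surface protein of fibroblasts, went from a median of 8.50 to 165 CPM (3.42 ± 0.49, adjusted p = 0.00324), and Prrx1, a transcription factor of mesenchyme, from 22.6 to 180.2 CPM (2.54 ± 0.38). Pdgfra, the receptor that marks resting fibroblasts too, rose less, by 1.04 ± 0.18, and Dpt, a matrix protein of fibroblasts, by 1.39 ± 0.27.

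The contractile genes of smooth muscle, which myofibroblasts share, were higher in 9 of 12 cases and lower in 2. The number higher was 5 without heart 3 or 5. Acta2 was at 406, 135, 121, 81.1, 81.8 and 131 CPM in the remote libraries of hearts 1 to 6 and at 454, 419, 813, 822, 295 and 196 CPM in their infarct libraries. It rose in 6 of 6 hearts, by little in heart 1 (log2 fold change 1.72 ± 0.45, adjusted p = 0.0136), whereas Actc1, with the same 10 letters in its promoter, fell. Of the other tested genes with these letters, Ryr3, a calcium release channel, was lower by 2.15 ± 0.53. A locus without a gene name was lower by 1.27 ± 0.42 (adjusted p = 0.0321), so Acta2 alone rose among them. Tagln, an actin-binding protein, rose by 2.23 ± 0.55, and Actg2, an actin of visceral smooth muscle, by 2.37 ± 0.56. Myh11, the myosin of mature smooth muscle, ran from 89.0 to 179.9 CPM in remote and from 108 to 207 CPM in infarct libraries, with 3 hearts higher and 3 lower (log2 fold change 0.07 ± 0.22, adjusted p = 0.777). The 2 genes that fell were Smtn, smoothelin (-0.92 ± 0.15), and Synpo2, an actin-bundling protein of both smooth and striated muscle (-2.13 ± 0.46).

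Vessel genes were divided. Among 15 endothelial genes 1 was higher and 6 lower (median -0.31), and among 12 genes of mural cells and Notch signaling 3 were higher and 5 lower. Over all genes tested 31.5% were higher and 31.4% lower, so counts in lists this small say little about vessels as a set. Pecam1 (CD31), a junction protein of all endothelium, ran from 263 to 327 CPM in the remote and from 198 to 288 CPM in the infarct zone (log2 fold change -0.33 ± 0.13, adjusted p = 0.0524), and Cdh5, VE-cadherin, changed by -0.21 ± 0.13 (adjusted p = 0.201), a sign that turned without TMM scaling. Kdr, the main VEGF receptor, fell from a median of 235 to 75.3 CPM (-1.41 ± 0.23, adjusted p = 0.00339). Plvap, the diaphragm protein of fenestrated and newly formed capillaries, was the 1 gene that rose. It was at 33.8, 3.38, 7.06, 15.7, 4.31 and 8.99 CPM in the remote libraries of hearts 1 to 6 and at 119, 83.2, 62.9, 74.9, 36.3 and 42.0 CPM in the infarct libraries. The groups did not overlap even with the high remote library of heart 1 (log2 fold change 2.81 ± 0.36, adjusted p = 0.00324).

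In the Notch and mural list, Notch3, the receptor of mural cells, rose by 0.47 ± 0.12 in 6 of 6 hearts (adjusted p = 0.0133), with 103 to 167 CPM in remote and 137 to 223 CPM in infarct libraries. Its ligand Jag1 rose by 0.59 ± 0.11, and Pdgfrb, the receptor that recruits pericytes, by 1.23 ± 0.21. Abcc9, the potassium channel subunit of pericytes and of cardiomyocytes, fell by 1.57 ± 0.38.

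The ligands that call vessels did not move together. Of 19 such genes 9 were higher and 4 lower, against 31.5% and 31.4% of all genes tested. The 4 lower ones were Vegfa, Vegfb, Fgf1 and Angpt1. Vegfa, the principal signal for new capillaries, was at 468, 812, 839, 721, 875 and 809 CPM in the remote libraries of hearts 1 to 6 and at 246, 118, 131, 168, 299.5 and 576 CPM in the infarct libraries. It was lower in the infarct of 6 of 6 hearts (log2 fold change -1.76 ± 0.35, adjusted p = 0.00509). Vegfb, a VEGF of metabolically active muscle, fell by 1.92 ± 0.31, Fgf1, a fibroblast growth factor of the heart, by 2.59 ± 0.61, and Angpt1, which steadies vessel walls, by 1.34 ± 0.18. These genes fell together with the sarcomere list, and the part of the muscle loss in their fall was not tested. Angptl4, a secreted lipase inhibitor of fasting and hypoxia, rose from a median of 4.90 to 39.5 CPM (2.85 ± 0.59), and Ndnf, a secreted factor of mesenchymal cells, from 0.269 to 8.95 CPM (4.32 ± 0.94). Cxcl12, the chemokine that draws progenitor cells, ran from 218 to 339 CPM in remote and from 245 to 425 CPM in infarct libraries, higher in 3 hearts and lower in 3 (0.31 ± 0.19, adjusted p = 0.188).

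Of the 9 genes that the study names in its account of the RNA, 8 were higher in the infarct zone and Cxcl12 did not pass the test. They are Col1a1, Col12a1, the type VI collagen chains, Adam12, Ndnf and Notch3. Col6a1 went from a median of 317 to 1702 CPM (2.05 ± 0.31), Col6a2 changed by 2.11 ± 0.33, Col6a3 by 2.21 ± 0.44 and Col12a1 by 4.31 ± 0.80 (2.45 with adjusted p = 0.0536 without the heart as a block). These genes were chosen by the study on libraries of this series, so the count is not independent evidence of their direction.

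Most genes of the TGF-beta family and its inhibitors were higher. Of 21 tested 16 were higher and 2 lower (median 0.98). The list holds receptors and inhibitors as well, so these counts do not give the strength of the signal, which was not tested. Grem1, a BMP antagonist, went from a median of 0.529 to 11.9 CPM (3.99 ± 0.84, adjusted p = 0.00598), Ltbp2, a matrix protein of the latent TGF-beta binding family, rose by 3.84 ± 0.77 (1.94 with adjusted p = 0.127 without the heart as a block), and Tgfbr2, a receptor, by 0.80 ± 0.13. Inha, the inhibin alpha chain, and Smad7, the inhibitor of the TGF-beta signal inside the cell, fell by 2.37 ± 0.24 and 0.49 ± 0.12, the latter not past the test without TMM scaling. In the Wnt pathway 8 of 16 genes were higher and 1 lower. Among the higher genes, Sfrp2 and Sfrp4, secreted proteins that bind Wnts, did not overlap between the zones, with infarct medians of 246 and 78.9 CPM against 14.1 and 1.53 CPM in the remote zone (3.96 ± 0.67 and 4.60 ± 0.86). The ligand Wnt4 rose by 4.19 ± 0.92 and the ligand Wnt11 fell by 1.89 ± 0.36.

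Macrophage and cytokine genes rose. All 19 macrophage genes were higher (median 2.50), with 12 of 16 cytokine and chemokine genes higher and 1 lower, and 7 of 8 genes of antigen presentation higher. Of the last, 2, 3 and 1 were called without heart 2, 3 or 5. Lyz2, the lysozyme of myeloid cells, was at 2296, 162, 231, 315, 155 and 224 CPM in the remote libraries of hearts 1 to 6 and at 4147, 5119.8, 10291, 5687, 4087 and 1253 CPM in the infarct libraries. The remote value of heart 1 exceeded the infarct value of heart 6, and within each heart the infarct was higher (log2 fold change 3.89 ± 0.75, adjusted p = 0.00458). Gpnmb rose by 4.99 ± 0.93 and Cd68 by 3.86 ± 0.62. Il10, a cytokine that damps inflammation, was at most 0.657 CPM in remote libraries, with no count in 3 of them, and ran from 1.19 to 12.3 CPM in infarct libraries with no overlap (adjusted p = 0.00336; the fitted log2 fold change of 5.10 depends on the offset). Il1rn, the antagonist of interleukin 1, rose by 3.71 ± 0.69 and Cxcl16, a chemokine that macrophages carry, by 1.59 ± 0.35. Cx3cl1, a chemokine of endothelium, was the 1 lower gene (-0.82 ± 0.14).

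Neutrophil and lymphocyte genes were low throughout. Of 10 neutrophil genes listed 4 had enough counts to be tested and all 4 were higher. S100a9 ran from 1.47 to 4.40 CPM in remote and from 5.99 to 42.9 CPM in infarct libraries with no overlap (2.39 ± 0.47), and Csf3r, the receptor for G-CSF, had a median of 2.06 CPM in remote and 29.3 CPM in infarct libraries (3.71 ± 0.72). Fcnb rose by 3.56 ± 0.86. Of 15 lymphocyte and plasma cell genes 9 were tested, 4 were higher and 1 lower. Although the rats have no thymus, Cd8a, which rat T cells share with natural killer and some myeloid cells, was counted in all 12 libraries, from 0.919 to 15.3 CPM in the remote and 14.7 to 76.0 CPM in the infarct zone (4.25 ± 0.82, adjusted p = 0.00460). Cd3g, a chain of the T cell receptor complex, stayed between 0.593 and 5.55 CPM in the infarct zone and at or under 0.493 CPM in the remote zone (3.20 ± 0.82). Mzb1, a plasma cell chaperone, was lower (-2.36 ± 0.80), with at most 2.78 CPM, and lost its call without heart 2, 3, 4 or 5. Among the class II genes Cd74, the invariant chain, ran from 351 to 638 CPM in remote and from 317 to 1469.8 CPM in infarct libraries and did not pass the test (0.45 ± 0.39, adjusted p = 0.335). RT1-DMa, which loads peptides, rose by 2.19 ± 0.50, and RT1-Da by 1.91 ± 0.59, the latter not past the test without heart 2, 3 or 5. Interferon-stimulated genes gave 2 higher and 1 lower of 12 (median 0.05), the higher being Mx1 (1.24 ± 0.45) and Ifi44 (0.49 ± 0.16) and the lower Rsad2 (-0.54 ± 0.15). The call of Mx1 was lost in 5, that of Ifi44 in 3 and that of Rsad2 in 2 of 14 alternatives, and no gene of this list was called higher without heart 2, 3 or 5.

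Genes of dividing cells were higher in 14 of 22 cases and lower in none (median 0.98). With 1 heart left out the count ran from 4 (without heart 5) to 18 (without heart 1), and was 10, 8, 12 and 10 without hearts 2, 3, 4 and 6. Ccnb1, the mitotic cyclin, was at 15.8, 7.82, 2.72, 14.5, 3.11 and 3.58 CPM in the remote libraries of hearts 1 to 6 and at 15.5, 24.2, 26.1, 24.9, 16.9 and 8.60 CPM in the infarct libraries. The remote libraries of hearts 1 and 4 lay in the infarct range (log2 fold change 1.53 ± 0.42, adjusted p = 0.0165). Plk1, a mitotic kinase, rose by 1.59 ± 0.50 (not past the test without heart 3 or 5, as Ccnb1 without heart 5), while Pcna, the clamp of DNA replication and repair, changed by 0.09 ± 0.09 (adjusted p = 0.404) and the G1 cyclin Ccnd1 by -0.23 ± 0.15 (adjusted p = 0.196). Of 17 genes that move new proteins through the secretory pathway 12 were higher and 1 lower. Calr, a calcium-binding chaperone, rose by 0.87 ± 0.19 and Sec61b, part of the pore into the endoplasmic reticulum, by 1.69 ± 0.32, and the chaperone Hyou1 was lower by 0.35 ± 0.11, a call lost in 6 of 14 alternatives.

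Markers of the heart's surface and of tissue other than heart muscle were present in some pieces. Of 12 mesothelial and epicardial genes 6 were higher, with Msln, mesothelin, at 1.19 to 85.2 CPM in remote and 35.4 to 298 CPM in infarct libraries (2.98 ± 0.68), and Upk1b at 2.59 ± 0.76, neither past the test without the heart as a block, nor Upk1b without heart 3. Over the whole list the mean level ran from 0.07 to 4.14 in the remote and from 2.42 to 5.67 in the infarct zone. The median log2 fold change of the list was 1.49, against 0.62 in untreated MI and 0.87 at the same positions of sham hearts. The interaction with sham called 2 of the 12 as more positive. Fast skeletal muscle genes were near 0 in most libraries but not in the infarct libraries of hearts 2 and 6, whose mean levels were 3.42 and 5.20 on the log2 scale against -0.60 to -0.33 in the other 4. Mylpf, the fast regulatory light chain, was at 81.3 and 117 CPM there and at 0.983 to 3.25 CPM in the other 10 libraries. Tnnt3, fast troponin T, was the 1 gene of 4 tested that passed the test (1.90 ± 0.39). Lung genes had a mean level of 3.40 in the infarct library of heart 6 and of at most -0.37 in the other 11, and of 4.62 in the border library of heart 4. Adipocyte genes reached 2.38 to 2.90 in the infarct libraries of hearts 1, 3 and 4 and at most 0.96 in the other infarct and remote libraries, while the border libraries of hearts 1, 2, 5 and 6 reached 5.15, 3.78, 5.11 and 5.79. Cfd was higher (2.97 ± 0.43), Fabp4, which capillaries also make, was lower (-0.92 ± 0.25, not past the test without heart 4), and the defining markers Adipoq and Plin1 were too low to be tested. Of 8 Schwann cell and nerve genes 2 were higher and 3 lower, near the shares over all genes tested (31.5% and 31.4%). Of 7 red blood cell genes 1 was lower. The part of such tissue in the results was not tested.

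Of the 10 largest falls, 8 were of genes outside the lists, beside Myh6 and Kcnip2. Klhdc7a ran from 4.93 to 36.5 CPM in remote libraries (median 29.9) and had a median of 0.180 CPM in infarct libraries, where only hearts 5 and 6 exceeded 1 CPM (1.94 and 9.79; log2 fold change -5.38 ± 1.10, adjusted p = 0.00546). Dcdc5 (-5.42), Ros1 (-5.13), a receptor tyrosine kinase, Asb10 (-4.96), Tuba8 (-4.72), an alpha tubulin, and Dhrs7c (-4.71), a reductase of the sarcoplasmic reticulum, followed the same pattern, as did Rpl3l (-4.65), the ribosomal protein that striated muscle makes in place of Rpl3, and Perm1 (-4.61), a regulator of muscle mitochondria. In all 8 the infarct library of heart 6 was the highest of its zone.

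In the border libraries of the same hearts, the mean levels stood between the other zones for 8131 of the called genes (81.6%). The median called gene lay 72.6% of the way from the remote to the infarct mean on the log2 scale. These genes were chosen for a difference between the infarct and remote zones, which favors a border mean between them. The means also include hearts 1 and 6. The border was not graded in every heart. The sarcomere level was 3.65 in the border library of heart 1, under its infarct library at 7.88, and 8.82 in that of heart 6, under its infarct library at 10.72. In hearts 2 to 5 the border lay between 10.02 and 10.73, nearer to the remote library in hearts 2, 3 and 4 and nearer to the infarct library in heart 5 (11.50, 10.15 and 9.54 from remote to infarct). Plvap had its highest median, 161 CPM, in the border zone, and Ca3 also, at 492 CPM. The study reports Notch3 and Cxcl12 as raised with the sheet particularly in the border region. Their border medians were 232 CPM (182 to 284) and 493 CPM (220 to 814), each above the highest infarct library of that gene. The border zone was not tested against the other zones here, so the infarct and remote results do not bear on that report.

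Set beside untreated MI hearts, the zone difference of cell sheet-treated hearts ran in the same direction for most genes, at a larger fitted size. Across the 15533 genes tested in both, the log2 fold changes between zones correlated with Pearson's r = 0.89, with a slope of 0.50 for untreated MI on cell sheet hearts (across genes, which are not independent, and from different animals). In untreated MI hearts 5784 of 15901 genes were called. Remote Myh6 ran from 2236 to 7056 CPM in untreated MI hearts. In cell sheet hearts it was 3855 and 194 CPM in hearts 1 and 3 and 10106 to 13960 CPM in the others. The infarct ranges overlapped (71.8 to 3003 and 2.85 to 5579 CPM). Counts on no single gene took 29.2% to 40.3% of untreated MI remote libraries and 23.4% to 31.9% of cell sheet remote libraries. The part of each zone in the larger difference was not tested. The test of the difference itself, an interaction of zone and treatment with the heart as a block, called 0 of 16902 genes (lowest adjusted p = 0.0999), while 4190 genes (24.8%) had an unadjusted p under 0.05, of which 2428 had the more positive zone difference in the cell sheet hearts. This count changed with single hearts. Without heart 1 the same test called 2011 genes (1360 with a more positive and 651 with a more negative zone difference in cell sheet hearts), without hearts 1 and 6 it called 4889, and with untreated MI heart 6 left out it called 3. Hearts 1 and 6 were left out for the levels measured in them, so the counts without them are descriptions. DESeq2 called 1802 genes on all hearts, and a fit over all 3 treatments 1543.

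**Figure D5:**
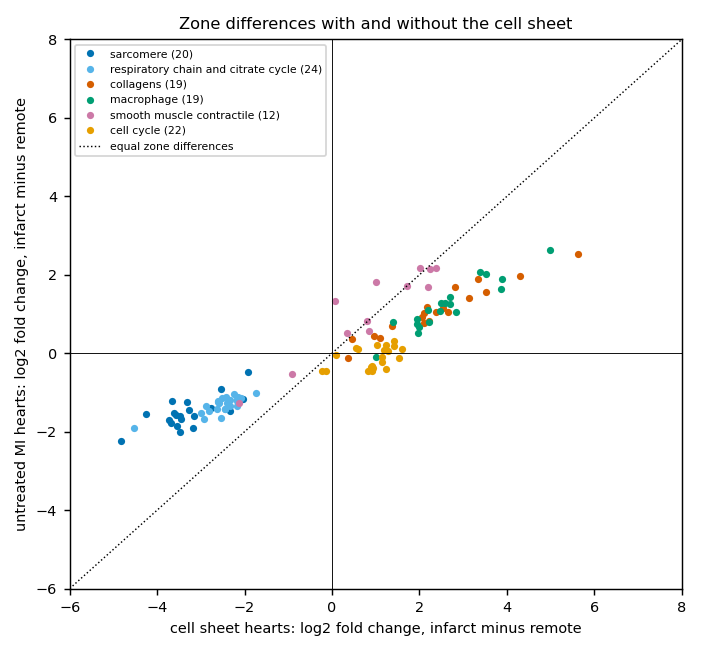
Log2 fold change between the infarct and the remote zone in cell sheet-treated hearts (x axis) and in untreated MI hearts (y axis) of the genes of 6 lists that were tested in both, with a dotted line of equal change. Sarcomere, respiratory chain and macrophage genes lie nearer to 0 on the y axis than on the x axis, and the cell cycle genes lie near 0 on the y axis (median -0.10) and mostly to the right on the x axis (median 0.98).

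Since no gene passed the adjusted threshold, gene lists are described by their counts of unadjusted p under 0.05 in either direction. The background is 24.8%, and only a part of the lists is given. Lists not given lay on both sides of it, such as antigen presentation (0 of 8), calcium handling (3 of 17) and provisional matrix (13 of 17). Of the 22 cell cycle genes all had a more positive zone difference in cell sheet hearts, 17 of them with such a p, and the median log2 fold change was 0.98 in cell sheet and -0.10 in untreated MI hearts. Ccnb1 changed by 1.53 in the former and -0.11 in the latter (difference 1.65 ± 0.48, adjusted p = 0.109, and 0.0210 without heart 1). Collagens (14 of 20) and macrophage genes (13 of 19) had medians of 2.29 and 2.50 against 1.06 and 1.10. The sarcomere list had a median of -3.46 against -1.57, yet the spread between hearts was wide and 2 of 20 genes had such a p. Among the 12 smooth muscle genes 6 differences were positive and 6 negative. Acta2 rose by 1.72 in cell sheet and by 1.72 in untreated MI hearts, a difference of 0.02 ± 0.56 (adjusted p = 0.983). For S100a9 the zone change was 2.39 against -0.22 (difference 2.64 ± 0.64, adjusted p = 0.0999), and for Il1rn 3.71 against 0.52 (difference 3.20 ± 0.89, adjusted p = 0.107).

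The genes with the lowest p in this test were mostly small and steady changes. Cyth1, an exchange factor for Arf proteins, was lower in the infarct of 6 of 6 cell sheet hearts (-0.69 ± 0.10) and changed by 0.17 in untreated MI hearts (difference -0.84 ± 0.13, adjusted p = 0.0999). Ace, the angiotensin-converting enzyme, ran from 15.7 to 45.4 CPM in remote and 42.4 to 81.4 CPM in infarct libraries of cell sheet hearts, and its zone change was 1.34 against 0.51 in untreated MI hearts (difference 0.85 ± 0.14, adjusted p = 0.0999). Aldh1a3, which makes retinoic acid, changed by 1.93 against 0.19 (difference 1.76 ± 0.30). Adgrl4, an adhesion receptor of endothelium, changed by 0.54 against -0.17 (difference 0.73 ± 0.12). Cxcl3, a neutrophil chemokine, had the widest difference of these (7.19 ± 1.26), with no count in 3 of the 6 remote cell sheet libraries and a single high infarct library, that of heart 2 at 42.6 CPM. None of these passed the adjusted threshold with all hearts. Plvap had a zone change of 2.81 against 0.72 (difference 2.11 ± 0.50, adjusted p = 0.0999 with all hearts and 0.0225 without heart 1), and Myh11 one of 0.07 against 1.33 (difference -1.23 ± 0.30, adjusted p = 0.0999 and 0.0344). For Notch3 and Cxcl12 the differences were -0.12 ± 0.25 and 0.16 ± 0.26 (adjusted p = 0.779 and 0.695).

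At the same positions of sham hearts 4878 of 15077 genes were called between the zones, in the absence of any infarct. The interaction with sham called 8543 of 16455 genes (51.9%), 4090 with a more positive and 4453 with a more negative zone difference in cell sheet hearts, and 5256 without the heart as a block. Of the 20 collagens 19 were called as more positive, of 20 sarcomere genes 19 as more negative and of 19 macrophage genes 18 as more positive. Among the 10 genes with the lowest p, Mrpl54, a mitochondrial ribosomal protein, changed by 1.00 in sham and -0.90 in cell sheet hearts (difference -1.89 ± 0.12, adjusted p = 4.27e-06), Psmb6, a proteasome subunit, by 0.86 and -0.73 (difference -1.58 ± 0.11), and Mtln, a microprotein of mitochondria, by 1.14 and -1.32 (difference -2.46 ± 0.17). Vegfa changed by -0.22 in sham, -0.84 in untreated MI and -1.76 in cell sheet hearts, and Plvap by 0.70, 0.72 and 2.81 in the same order.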

How the data were processed

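Polyadenylated RNA of left ventricular pieces was sequenced as paired-end reads. The authors aligned the reads with STAR to the rat assembly mRatBN7.2 and deposited raw counts per gene for each library. The sheet was of human cells, and counts from human and rat reads of like sequence cannot be told apart here. The counting program and whether it used strand are not given in the sources used here, so that overlapping or antisense genes cannot be told apart. The 5 summary lines of each table name no gene and were left out, which leaves 40319 genes. Symbols are those of the tables.

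Counts were tested in R 4.3.3 with edgeR 4.0.16 (quasi-likelihood F test, TMM scaling, filterByExpr, Benjamini-Hochberg adjustment, threshold 0.05) on the 12 libraries, with the heart as a block. Both zones of a replicate number were taken to come from the same heart. The deviations of the paired libraries from their zone means correlated at 0.35, -0.22, -0.16, 0.07, 0.37 and 0.45 in hearts 1 to 6. Only 1 heart matched best with the library of its own number. The counts thus do not bear out the pairing for most hearts, and counts of genes without the block are given as well. Zone differences were compared between treatments by an interaction on 24 libraries, with the heart as a block. Levels are CPM with TMM factors over the 42 libraries used, with an offset of 0.1 on the log2 scale for means over lists. The share of counts on no single gene was tested by an exact paired permutation test. No pair of libraries within a zone was 1 library deposited again (chi-square per degree of freedom of at least 13.8 over genes with 50 or more counts). On a single draw of simulated counts the interaction recovered fewer changed genes than the zone test, and its share of false calls was above the threshold. That draw had few changed genes and no differences between hearts. It therefore cannot give the error rate of either test on these data.

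The 35 gene lists (516 genes), the tests and the comparison itself were chosen with earlier results of these data known. Genes are named if the study names them in its account of the RNA, if they are among the 10 largest rises or falls past the threshold with an average log2 CPM no lower than 1 and 1 direction in all 6 hearts, if they are the 2 most abundant, the 2 most changed or an opposite member of a list, or if they are among the 10 lowest p of an interaction. Myh7, Myh11, Cd68 and Ryr3 were named beyond this rule, after their values were seen. Promoters come from RefSeq (GRCr8, 33469 entries, the first entry of each symbol). The alternatives were DESeq2 1.42.0, limma-voom (limma 3.58.1), no TMM factors, no filter, at least 10 counts in every library, no block, all 18 libraries of the cell sheet hearts, all 3 treatments in 1 fit, a 2-fold minimum and leaving out each heart. Leaving out hearts 1 and 6 together, and limma-voom for the interactions, were added after the data were seen.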

Additional observations from a re-analysis of the deposited data

Results flagged for a closer look

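Of 364 tests for a library far from the other 5 of its zone (genes named, list means and shares of counts), 54 found one. Chance gives about 1 in 20 in independent tests. These tests share the same libraries, so the 54 cannot be set against that rate. The value is the gap to the nearest library divided by the range of the zone on the log2 scale (for the share of counts, in percent), set against Dixon's 95% critical value.

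The remote library of heart 1 accounts for 40 of them. It was the lowest remote library for Tpm1 (0.642), Pln (0.657), Kcnip2 (0.732), Ppargc1a (0.685), Atp5f1a (0.725), Atp5f1b (0.795), Aldoa (0.666), Smtn (0.800), Kdr (0.756), Vegfa (0.691), Vegfb (0.739) and Mzb1 (0.634). The same held for Asb10 (0.713), Klhdc7a (0.811), Dcdc5 (0.716), Ros1 (0.659), Perm1 (0.689) and Rpl3l (0.666), and for the means of the lists of sarcomere (0.729), calcium handling (0.722), fatty acid oxidation (0.692) and respiratory chain genes (0.706). It was the highest remote library for Slc2a1 (0.659), Tnn (0.773), Lum (0.733), Mmp12 (0.654), Pdgfra (0.636), Acta2 (0.682), Tagln (0.767), Pdgfrb (0.681), Lyz2 (0.738), Gpnmb (0.726), Fcnb (0.761), Cd8a (0.772), Calr (0.715), Sec61b (0.691) and Tnnt3 (0.706), and for the means of the fibroblast (0.641), macrophage (0.630) and secretory pathway lists (0.807).

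The infarct library of heart 6 accounts for 9. It was lowest for Timp2 (0.710), Plk1 (0.701) and the means of the cell cycle (0.717), macrophage (0.663) and secretory pathway lists (0.736), and highest for Smtn (0.743), Mzb1 (0.734), the mean of the lung list (0.674) and the share of counts on no annotated gene (0.634). The remote library of heart 3 was lowest for Myh6 (0.699), Ifi44 (0.720) and Adgrl4 (0.644) and highest for Myh7 (0.714), and the infarct library of heart 5 was highest for Dcn (0.630).

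Between treatments, the zone difference of cell sheet-treated hearts differed from that of sham hearts for 8543 genes by the test of the difference itself.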

How the results depend on the processing

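The number of genes that differ between the zones lay within 1.5 times of 9964 under DESeq2 (10667), limma-voom (10029), no TMM factors (10499), no filter (9430), at least 10 counts in every library (8786), all 18 libraries (10746) and with each heart left out (8170 to 10054), and it was 4831 with a 2-fold minimum. Without the block it was 9784, of which 9264 were shared with the paired test, and the interaction with sham fell from 8543 to 5256. Of 143 genes named, 132 were past the threshold. Of these 111 stayed past it wherever they were tested (91 in all 14 alternatives, 20 in 13) and 21 lost it in at least 1, with no sign turned. The interaction with untreated MI, at 0 genes, gave 1802 with DESeq2, 1543 with all 3 treatments in 1 fit, 0 to 2011 with 1 heart left out (2011 without cell sheet heart 1, 3 without untreated MI heart 6) and 4889 without cell sheet hearts 1 and 6, and 0 in each of the other settings. The cause was not tested.

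Among values not past the threshold, the sign turned for Myh11 without heart 4 (-0.14) and Cdh5 without TMM factors (0.00596), for the median of interferon-stimulated genes without heart 2 (-0.07) or 5 (-0.12) and for that of adipocyte genes without heart 1 (-0.0933) or 3 (-0.016). The extremes with 1 heart left out were -0.14 and 0.20 for Myh11, -0.12 and 0.26 for the interferon and -0.0933 and 3.70 for the adipocyte median. The difference in the share of counts on no single gene was -9.31 without heart 1 (p = 0.0625, exact paired permutation test). Depth limits low genes, such as those of neutrophils and lymphocytes, most.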
